A study of Mus musculus with 4 samples.

Results

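The genes of the DNA replication machinery were followed by ribosome profiling in mouse embryonic stem cells that had been kept with or without the compound PD. The members were chosen by symbol, as the subunits and regulators that license origins, unwind DNA, synthesise and join the new strands and supply deoxyribonucleotides. They comprise 43 genes of the 25170 in the deposited table, all 43 were found there, and all 43 averaged 1 FPKM or more and were tested. FPKM count fragments relative to the length of the transcript and to the size of the library.

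The cells were wild-type E14, an embryonic stem cell line from the inner cell mass, grown on gelatin in medium with serum and leukemia inhibitory factor. The control group was kept in DMSO, the solvent, and the other in 1 µM PD, both for 3 passages, with 2 libraries each. The labels do not spell out PD. The series asks about the kinase Mek in gene regulation after transcription. Whether the replicates were separate cultures is not in the labels; p-values therefore measure only how far these libraries lie apart, which may be technical. Footprints are RNA pieces that ribosomes shield from nuclease, and their number follows both the amount of an mRNA and how densely ribosomes occupy it. No matched RNA sequencing was used here, so these contributions cannot be told apart, nor can a change in the share of cells in S phase be told apart from a change per cell.

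Replication begins with licensing. The origin recognition complex, with Cdc6 and Cdt1, loads the Mcm2 to Mcm7 ring onto DNA, and geminin (Gmnn) holds Cdt1 back outside the licensing window. Cdc45 and the GINS complex then turn the ring into an active helicase, polymerase alpha with primase lays down primers, and polymerases epsilon and delta extend the leading and lagging strands with the sliding clamp Pcna, which the RFC complex loads. Embryonic stem cells spend much of their cycle in S phase, and many of these genes are textbook targets of the E2F transcription factors, which drive genes of S phase entry.

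RefSeq promoters (GRCm38.p6, the assembly behind mm10, from 250 bases before to 50 bases after a start site) were matched for 35 of the 43 members. An E2F motif, searched as TTTCGCGC, TTTGGCGC, TTTCCCGC or TTTGGCGG on both strands, stood in the promoters of 18 of the 35 members (51.4%). The same letters stood in 3.44% of 17491 protein-coding genes and in 2.70% of all 27025 genes in the promoter table. The motif CCAAT, the site of the factor NF-Y, was present on either strand in 23 of the 35 members (65.7%) against 41.1% of all genes. These matches describe the sequence, and no binding was measured here. The windows below lie upstream of the start site. Mcm5 is shown as the member of the Mcm ring with the highest footprint level, and Rrm2 for the largest difference of all members. Orc1, Mcm6 and Mcm7 are shown because they were higher in both PD libraries and had an E2F motif upstream of the start. Capitals mark E2F motifs in the windows of Mcm5, Mcm6, Mcm7 and Orc1 and the CCAAT box in that of Rrm2, which held no E2F motif. Each is written 5′ to 3′ on the strand of the gene.
Mcm5 (chr8:75109326-75109397, plus strand): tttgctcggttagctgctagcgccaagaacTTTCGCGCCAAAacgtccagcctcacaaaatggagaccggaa
Mcm6 (chr1:128359715-128359845, minus strand): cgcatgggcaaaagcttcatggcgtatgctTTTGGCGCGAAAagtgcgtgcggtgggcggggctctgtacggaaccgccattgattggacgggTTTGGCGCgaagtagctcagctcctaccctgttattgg
Mcm7 (chr5:138172011-138172078, minus strand): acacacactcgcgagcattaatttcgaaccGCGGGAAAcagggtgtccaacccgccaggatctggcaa
Orc1 (chr4:108579397-108579453, plus strand): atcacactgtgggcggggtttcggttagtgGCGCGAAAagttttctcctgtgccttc
Rrm2 (chr12:24708174-24708238, plus strand): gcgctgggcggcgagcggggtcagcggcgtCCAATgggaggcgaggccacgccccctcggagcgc
In Mcm5 and in the upstream block of Mcm6, matches on opposite strands overlap. The median log2 difference between PD and DMSO was 0.12 over the 18 members with an E2F motif and 0.09 over the 17 without. Both PD libraries lay above both DMSO libraries for 5 of those 18 and for 6 of those 17, where 17.5% of all genes tested did.

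**Figure D1:**
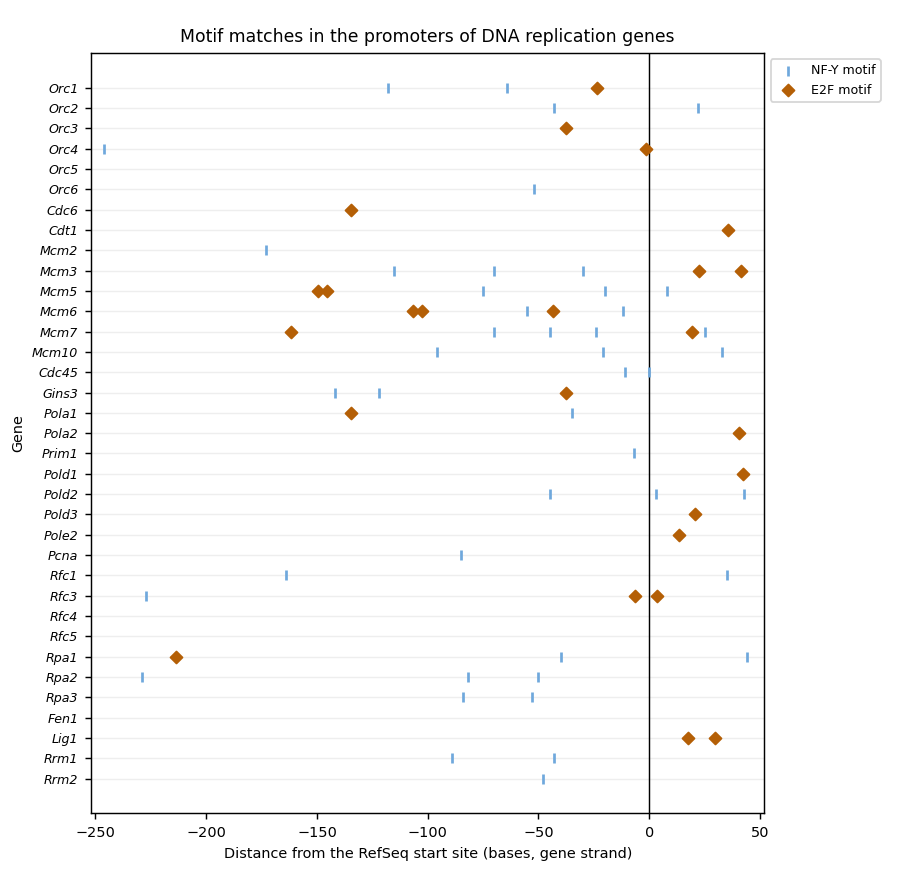
Positions of E2F motifs (diamonds) and of the NF-Y motif (bars) in the promoters of the 35 members found in RefSeq, as distance from the start site in bases on the gene strand. E2F motifs stand in 18 promoters, and in Mcm5 and Mcm6 a pair of them overlaps upstream of the start.

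Depth differed between the groups. Read from the steps of the FPKM values, DMSO replicate 2 was 1.42 times as deep as DMSO replicate 1, and the PD libraries were 0.464 and 0.201 times as deep. The lower depth falls on the PD group as a whole, and its part in the results was not tested. Whole reads could be recovered for 30 of the 43 members. Their median was 262 and 390.5 reads for DMSO against 131.5 and 56.5 for PD, and the lowest was 4 reads, for Gins3 in PD replicate 2. The true number may be a multiple of the one recovered, and intervals on them cover counting error only. The stem cell label was borne out by its markers: all 12 listed genes were tested, their summed level was 2578 to 2620 FPKM in DMSO and 2689 to 4315 in PD, and the pluripotency gene Dppa5a held most of it, at 1414 and 1633 FPKM in DMSO and 1421 and 3203 in PD. Pou5f1 stood at 228 to 326 FPKM with overlapping groups. Sox2 and Dppa4 lay lower in both PD libraries, and Nanog, L1td1 and Zfp42 lay higher; Nanog had 70 and 57.1 FPKM in DMSO and 136 and 116 in PD (adjusted p = 0.803, limma). The part of these marker differences in the results below was not tested. Of 12 feeder and fibroblast markers, 3 reached a mean of 1 FPKM, their summed level was 5.22 to 9.94 FPKM in DMSO and 7.02 to 10.3 in PD, and Lum and Postn were at 0 in all libraries.

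On the deposited scale the replication genes as a group stood at nearly the same footprint level in PD as in DMSO, and none of the 43 passed the test. Summed over the members, footprints came to 2358 and 2378 FPKM for DMSO and to 2478 and 2465 for PD. The median member had a log2 difference (PD minus DMSO, on the log2(FPKM + 1) scale) of 0.07, where the median of all genes tested was -0.02. Genes with small RNA symbols held 98.57% to 99.4% of the deposited FPKM sum. With the libraries rescaled to a common sum without these symbols the medians were 0.40 and 0.28, with 39 of the 43 members above 0. On the deposited scale 29 members were above 0. Members above the median of all genes numbered 31 on the deposited scale and 32 after the rescaling. Of the sum without these symbols, genes that RefSeq types as snoRNA still held 21.8% to 47.1%, with the lowest share in PD replicate 1. Without DMSO replicate 2 the medians were 0.18 and -0.03. The median size of the difference, regardless of sign, was 0.17 for the members and 0.32 for all 9741 genes tested. It was 0.25 for the 3438 protein-coding genes that averaged 10 FPKM or more, a level that 39 of the 43 members reached.

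limma called 0 members higher, where 0.0308% of all genes tested were called higher, and 0 lower, where 0.226% were called lower. At an unadjusted p under 0.05 there were also 0 members, against 5.76% of all genes, and with voom on recovered reads 0 members passed as well. The adjusted p-values of the members ran from 0.837 to 0.999 (limma). Both PD libraries lay above both DMSO libraries for 11 members (25.6%), where 17.5% of all genes tested did, and below them for 3 members (6.98%), where 18.3% did. The libraries of the other 29 members overlapped. For 35 of the 43 members, the libraries of at least 1 group lay farther apart than the groups did. That count was not made over all genes, so it is not read as particular to the members. In the alternatives that scale the libraries otherwise, the counts above and below were 10 to 13 and 0 to 5. The shares of all genes moved as well, between 15.9% and 28.4% above and between 5.92% and 19.9% below. The 13 above and 0 below came with the rescaling without small RNA genes, where 28.4% and 5.92% of all genes did so.

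**Figure D2:**
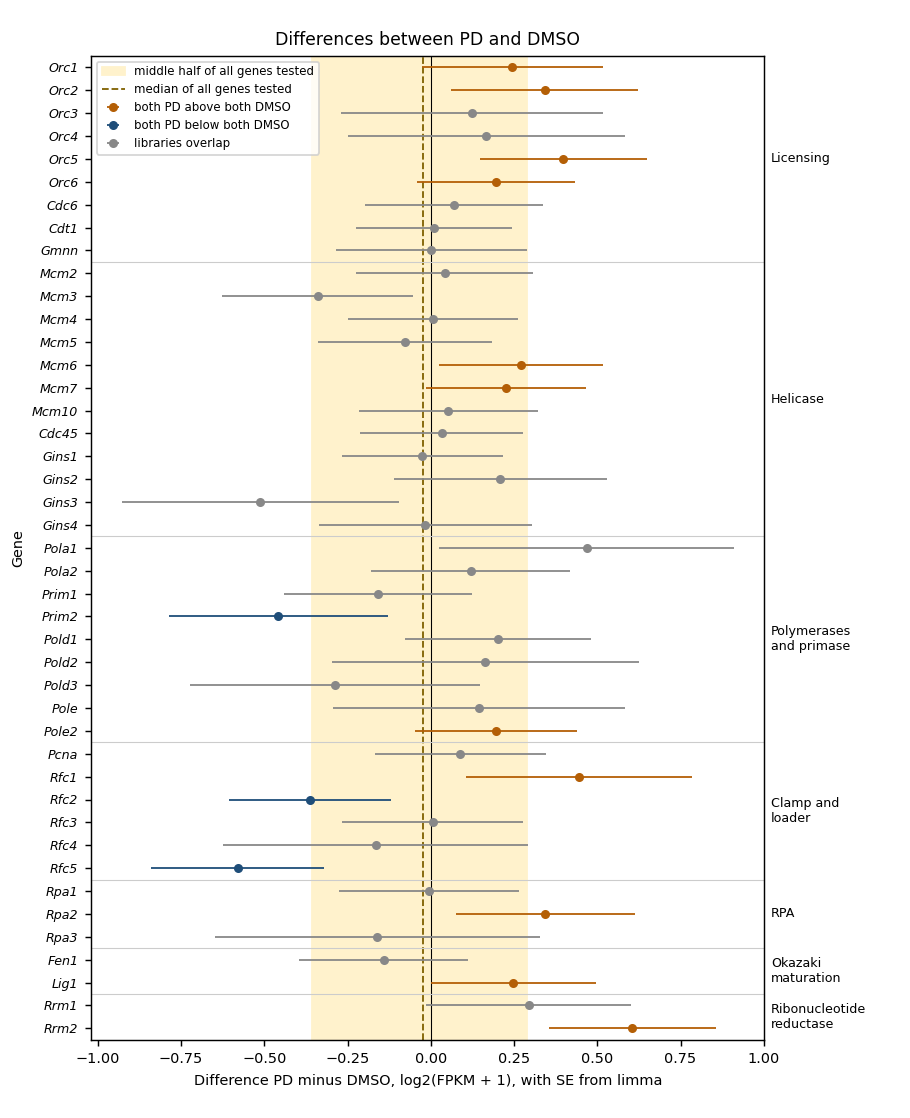
Difference between PD and DMSO for each of the 43 members, as log2(FPKM + 1) with the standard error from limma, ordered by role. Orange points mark the 11 members whose PD libraries both lay above the DMSO libraries and blue points the 3 that lay below; the shaded band is the interquartile range of all 9741 genes tested and the dashed line their median of -0.02.

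Footprint levels, which FPKM give per transcript length, spanned 101-fold from Gins3, at a mean of 3.02 FPKM, to Gmnn, at 304 FPKM. The members' median of 42.7 FPKM exceeded the level of 82.3% of all genes tested, and no member was at 0 in any library. Transcript length includes untranslated parts that ribosomes do not decode, so genes with long untranslated parts read lower than others at the same ribosome density. Gene order by level is therefore a description of FPKM.

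**Figure D3:**
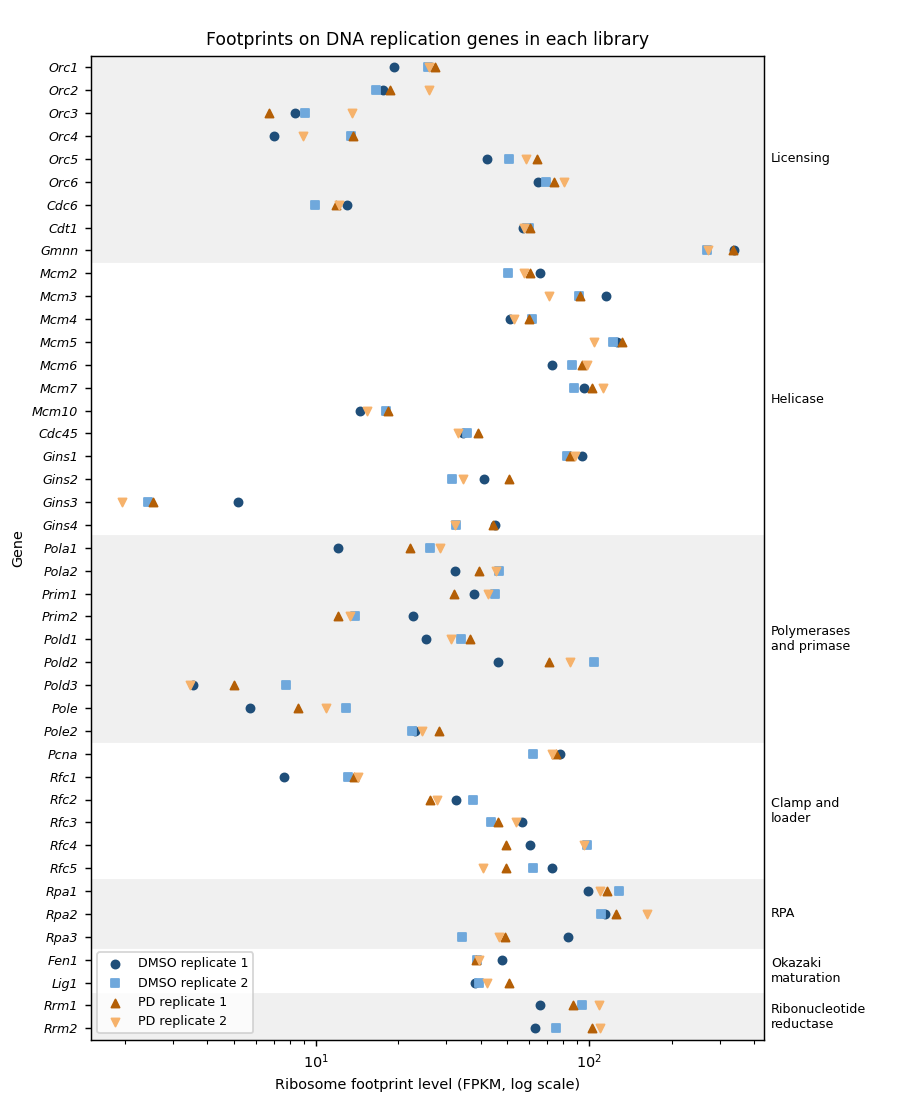
Footprint level of each member in FPKM on a log scale, by library and role. By the mean over libraries Gmnn is highest, at 270 to 338 FPKM, and Gins3 lowest, at 1.94 to 5.18, although Pold3 is lower than Gins3 in DMSO replicate 1, and for most members the 4 libraries lie close together compared with the spread between members.

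The licensing factors were described by 9 genes, of which 4 lay above in both PD libraries, 0 below and 5 overlapped, where 17.5% of all genes lay above. Gmnn, the inhibitor of Cdt1, had 338 and 270 FPKM in DMSO and 336 and 272 in PD. Its group means were 304 ± 48.0 and 304 ± 44.7 FPKM (SD, n = 2), so the replicates differed by far more than the groups. Cdt1, the loading factor that Gmnn binds, had 57.1, 60.1, 60.4 and 57.7 FPKM in DMSO replicates 1 and 2 and PD replicates 1 and 2. Cdc6, the ATPase that helps load the ring, had 13.0 and 9.95 FPKM in DMSO and 11.8 and 12.2 in PD. The footprint level of Gmnn was thus several times that of its target Cdt1 in every library.

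All 6 subunits of the origin recognition complex had a log2 difference above 0, as had 5 of the 6 without DMSO replicate 1, PD replicate 1 or PD replicate 2. The groups did not overlap for 4 of the 6, all of them with PD above; too few genes make up the complex to read this against the 17.5% of all genes. Orc5 (chromosome 5, 22486480 to 22550338) had 42.3 and 50.6 FPKM in DMSO and 64.4 and 58.4 in PD, or 0.40 ± 0.25 as log2 difference and SE (adjusted p = 0.837, limma). Orc6, the smallest and least conserved subunit, had 65.1 and 69.7 FPKM in DMSO and 74.4 and 80.5 in PD, a log2 difference of 0.20. Orc2 had 17.6 and 16.6 FPKM in DMSO and 18.6 and 25.8 in PD, so that its difference of 0.34 rested mostly on PD replicate 2 and was 0.12 without it. Orc1, the subunit whose level is known to follow the cell cycle, had 19.2 and 25.8 FPKM in DMSO and 27.2 and 26 in PD. Its log2 difference of 0.24 rested on DMSO replicate 1 and was 0.04 without that library. Orc3 and Orc4 overlapped between groups, at 6.71 to 13.5 and 7.04 to 13.6 FPKM, and their sign turned in 1 and 2 of the alternatives. Summed over the complex, footprints came to 160 and 185 FPKM for DMSO and 205 and 213 for PD. Levels within the complex were uneven: Orc6 was highest in all 4 libraries, 7.67-fold to 11.1-fold above the lowest subunit. None of these differences passed the test.

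The replicative helicase had no common direction. Over the 12 helicase genes the median log2 difference was 0.02, with 2 members above, 0 below and 10 overlapping, which is near the 17.5% of all genes above and under the 18.3% below. Mcm5, the highest subunit of the ring in 3 of 4 libraries, had 126 and 122 FPKM in DMSO and 132 and 104 in PD. Mcm7 (chromosome 5, 138164583 to 138171883) had 95.3 and 88.1 FPKM in DMSO and 103 and 112 in PD, or 0.23 ± 0.24 as log2 difference and SE (adjusted p = 0.882, limma). Mcm6 (chromosome 1, 128331575 to 128359705) had 73.0 and 86.1 FPKM in DMSO and 94 and 97.8 in PD, or 0.27 ± 0.25 as log2 difference and SE (adjusted p = 0.862, limma). It was 0.15 without DMSO replicate 1. Mcm6 and Mcm7 were thus the ring subunits whose PD libraries both lay higher. Mcm3 leaned the other way, at 115 and 91.5 FPKM in DMSO and 92.4 and 70.9 in PD, with libraries that overlapped. Mcm2 and Mcm4 stood at 50.4 to 65.7 and 51.3 to 61.7 FPKM, with no separation of the groups.

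Levels within the ring were more even than in the other complexes of 4 or more subunits. Its highest subunit stood 2.12-fold to 2.45-fold above its lowest in each library, against 3.14-fold or more in polymerase alpha with primase, 3.60-fold or more in RFC, 7.67-fold or more in the origin recognition complex and 18.2-fold or more in GINS. Summed over its 6 subunits, footprints came to 526 and 499 FPKM for DMSO and 542 and 496 for PD. Mcm10, an initiation factor outside the ring, stood lower, at 14.5 to 18.4 FPKM. Cdc45, the helicase cofactor, had 34.6 and 35.7 FPKM in DMSO and 39.1 and 33.2 in PD. Among the GINS subunits Gins1 was highest in all 4 libraries, at 82.9 to 94.1 FPKM, followed by Gins2 and Gins4, at 31.5 to 50.7 and 32.3 to 45.3 FPKM, whose libraries overlapped. Gins3 was lowest, at 5.18 and 2.41 FPKM in DMSO and 2.53 and 1.94 in PD, from 53, 35, 12 and 4 recovered reads. Its 4 reads in PD replicate 2 allow a level of 0.529 to 4.97 FPKM (exact Poisson interval, 95%).

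For the polymerase and primase genes other than Pole2, the DMSO libraries lay farther apart than the groups did. Pold2, an accessory subunit of polymerase delta, was the highest gene of the role at a mean of 76.6 FPKM, and had 46.3 and 104 FPKM in DMSO and 71.1 and 85.3 in PD. The DMSO values thus enclosed those of PD. Pola2, the regulatory subunit of polymerase alpha, had 32.3 and 46.7 FPKM in DMSO and 39.4 and 45.4 in PD. Pola1, its catalytic subunit, had 12.1 and 26.1 FPKM in DMSO and 22 and 28.4 in PD, and Pole, the catalytic subunit of polymerase epsilon, had 5.74 and 12.8 in DMSO and 8.61 and 10.8 in PD. Pold3 had 3.55 and 7.73 FPKM in DMSO and 4.99 and 3.45 in PD. In each of these, DMSO replicate 1 was the lowest or the second lowest library.

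Pole2 and Prim2 were the members of this role whose groups did not overlap. Pole2, the second subunit of polymerase epsilon, had 23.0 and 22.5 FPKM in DMSO and 28.1 and 24.4 in PD, or 0.20 ± 0.24 as log2 difference and SE (adjusted p = 0.902, limma). Without PD replicate 1 the difference was 0.10. Prim2, the large primase subunit (chromosome 1, 33453808 to 33669794), had 22.6 and 13.9 FPKM in DMSO and 12.1 and 13.3 in PD, or -0.46 ± 0.33 as log2 difference and SE (adjusted p = 0.838, limma). Here DMSO replicate 1 stood apart from the other 3 libraries, and without it the difference was -0.13. Prim1, the catalytic primase subunit, had 37.8 and 45 FPKM in DMSO and 31.8 and 42.7 in PD and stood above Prim2 in every library. Pold1, the catalytic subunit of polymerase delta, stood at 25.2 to 36.4 FPKM with overlapping groups.

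The clamp stood level, and the subunits of its loader had differences of either sign, none of which passed the test. Pcna, the sliding clamp, had 78.2 and 61.9 FPKM in DMSO and 75.2 and 73.0 in PD, so that both PD libraries lay within the DMSO range. Rfc5, a small subunit of the loader (chromosome 5, 117379145 to 117389023), had 72.9 and 62.5 FPKM in DMSO and 49.4 and 40.7 in PD. Its group means were 67.7 ± 7.40 and 45 ± 6.13 FPKM (SD, n = 2), or -0.58 ± 0.26 as log2 difference and SE (adjusted p = 0.837, limma), the lowest difference of any member. Rfc2, another small subunit, had 32.5 and 37.5 FPKM in DMSO and 26.2 and 27.7 in PD, or -0.36 ± 0.24 as log2 difference and SE (adjusted p = 0.837, limma). Both lay lower in PD. The rescaling without small RNA genes brought Rfc5 to -0.23 and Rfc2 to -0.01. It left 0 members below, where the share of all genes below was 5.92%. A rescaling to protein-coding genes, added after the data were seen, gave -0.61 and -0.39. It had 5 members below, where the share of all genes below was 19.9%. Quantile normalization gave -0.52 and -0.29, and centring the libraries on their median gave -0.55 and -0.33.

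Rfc1, the large subunit of the replicative loader, lay the other way. It had 7.61 and 13.1 FPKM in DMSO and 13.7 and 14.3 in PD, or 0.45 ± 0.34 as log2 difference and SE (adjusted p = 0.844, limma). DMSO replicate 1 stood apart from the other 3 libraries, and without it the difference was 0.09. Rfc4 had 60.5 and 98.4 FPKM in DMSO and 49.4 and 95.6 in PD, so that replicate 2 was higher in both groups. Rfc3 stood at 43.8 to 56.7 FPKM with no separation of the groups. Rfc1 was the lowest loader subunit in all 4 libraries.

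Of the single-strand binding complex RPA, which covers unwound DNA, Rpa2 lay higher in both PD libraries. It had 115 and 110 FPKM in DMSO and 125 and 163 in PD, or 0.34 ± 0.27 as log2 difference and SE (adjusted p = 0.849, limma). The difference rested mostly on PD replicate 2 and was 0.16 without it. Rpa1, the large subunit, had 98.5 and 129 FPKM in DMSO and 116 and 109 in PD. Rpa3, the smallest, had 83.6 and 34.2 FPKM in DMSO and 49.1 and 46.7 in PD, again with the PD values inside the DMSO range. Of the enzymes that finish Okazaki fragments, the flap nuclease Fen1 had 48.0 and 38.6 FPKM in DMSO and 38.6 and 39.3 in PD. The DNA ligase Lig1 had 38.1 and 39.6 FPKM in DMSO and 50.7 and 42.3 in PD, or 0.25 ± 0.25 as log2 difference and SE (adjusted p = 0.871, limma). Without PD replicate 1 it was 0.12.

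Ribonucleotide reductase, which makes deoxyribonucleotides from ribonucleotides, held the member with the largest difference. Rrm2, its small and cell-cycle regulated subunit (chromosome 12, 24708254 to 24714146), had 63.1 and 75.6 FPKM in DMSO and 102 and 109 in PD. All its PD values lay above all its DMSO values, with group means of 69.4 ± 8.84 and 106 ± 4.64 FPKM (SD, n = 2). The log2 difference was 0.61 with an SE of 0.25, a 1.52-fold higher level, with an unadjusted p of 0.0673 and an adjusted p of 0.837 (limma). It stayed between 0.48 and 0.96 in all 17 alternatives and did not pass in any. From recovered reads (578, 981, 435 and 201), the level in PD was 1.48 times that in DMSO, with a counting interval of 1.35 to 1.63. Rrm1, the large subunit that pairs with it, had 66.0 and 94.1 FPKM in DMSO and 86.8 and 108 in PD, a log2 difference of 0.29, with libraries that overlapped, and its lowest value among the alternatives was 0.042.

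The DMSO libraries differed from each other by more than counting error for most members. Among the 30 members with recovered reads, the 95% counting interval of the ratio between the DMSO libraries excluded 1 for 24, against 3 for the ratio between the PD libraries, whose lower depth gives wider intervals. For the ratio of PD to DMSO on summed reads it excluded 1 for 9. The same counts over all genes were not made, so these are not read as particular to the members. Over all 43 members, the DMSO libraries were more than 1.5-fold apart for 10, and the PD libraries for 3. DMSO replicate 2 was the higher for 7 of the 10: Orc4 (1.90-fold), Pola1 (2.16-fold), Pold2 (2.24-fold), Pold3 (2.18-fold), Pole (2.23-fold), Rfc1 (1.72-fold) and Rfc4 (1.63-fold). DMSO replicate 1 was the higher for Gins3 (2.14-fold), Prim2 (1.63-fold) and Rpa3 (2.44-fold). The 3 genes whose PD libraries lay that far apart were Orc3 (2.02-fold), Orc4 (1.52-fold) and Rfc4 (1.94-fold). The median size of the log2 difference between the DMSO libraries was 0.33 for the members and 0.37 for all genes tested, and between the PD libraries 0.21 and 0.45. The members' median level was 42.7 FPKM against 7.07 for all genes tested. Genes of like level were not compared, so these values are not read as particular to the members.

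**Figure D4:**
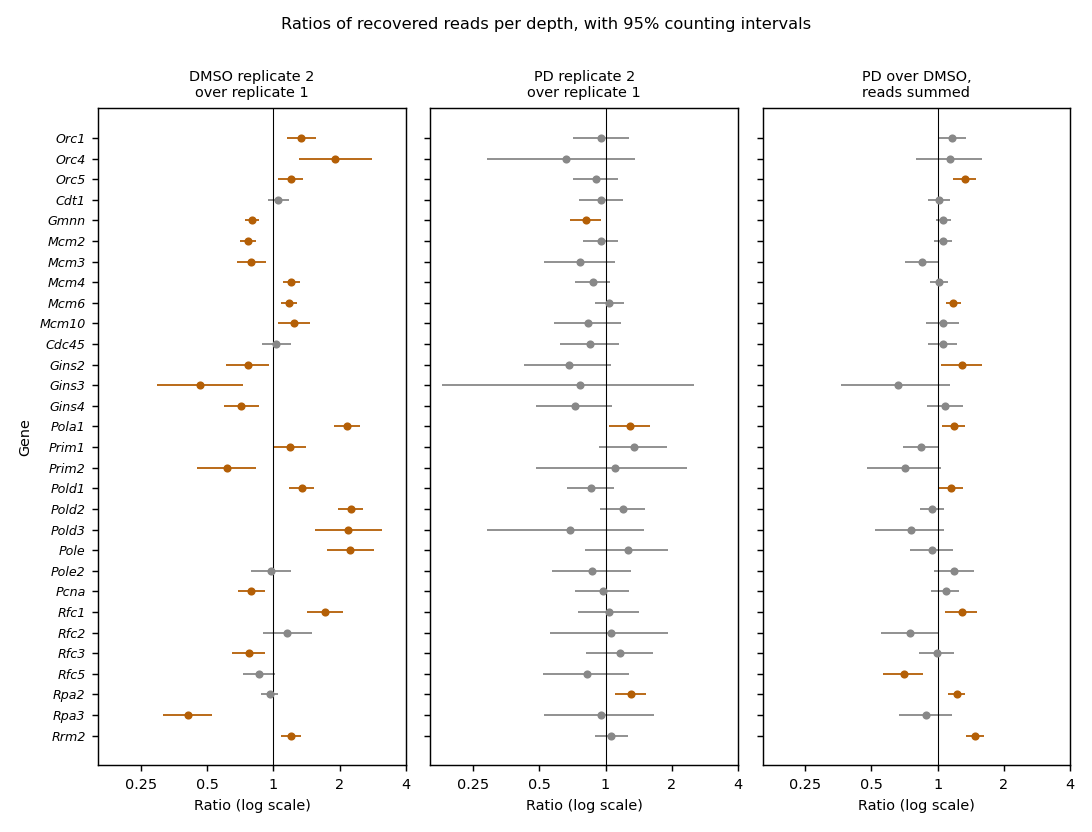
Ratios of recovered reads per depth for the 30 members that have them, on a log scale with exact 95% counting intervals: DMSO replicate 2 over replicate 1 (left), PD replicate 2 over replicate 1 (middle) and PD over DMSO with reads summed (right). Orange marks intervals that exclude 1, which are 24, 3 and 9 genes. The DMSO libraries thus differ from each other more often than counting error covers. Counts over all genes were not made.

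Other genes that work beside these members also gave no call. Of 38 further initiation, fork and checkpoint genes, all tested, 0 passed in either direction, 5 lay above and 5 below in both PD libraries, and the median log2 difference was 0.01. Donson, a factor that helps assemble the helicase, had 5.30 and 6.25 FPKM in DMSO and 10.3 and 15.2 in PD (log2 difference of 1.00, limma adjusted p = 0.806). The nuclease and helicase Dna2 had 13.9 and 14.7 FPKM in DMSO and 3.93 and 11.5 in PD, and Pole4, a small subunit of polymerase epsilon, had a log2 difference of -0.75 with overlapping libraries.

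Nucleotide supply genes outside ribonucleotide reductase leaned lower where they separated. Of 30 tested, 0 passed, 2 lay above and 8 below in both PD libraries, and the median was -0.14. Tyms, which makes thymidylate, had 13.5 and 11.9 FPKM in DMSO and 9.97 and 5.67 in PD. Impdh2 and Impdh1, which catalyse a step toward guanine nucleotides, had log2 differences of -0.66 and -0.60. Impdh2 stood close to the filter of 1 FPKM, at 2.15 and 1.62 FPKM in DMSO and 0.928 and 0.712 in PD. The separated genes above were Umps and Adss, and the others below were Gart, Nme1, Shmt1, Pfas and Atic. With the rescaling that leaves out small RNA genes the median of this list turned to 0.21, while the median of all genes moved from -0.02 to 0.28.

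Of 18 genes that assemble chromatin behind the fork, 0 passed, 3 lay above and 4 below, with a median of -0.04 that turned in 5 alternatives. It was 0.019 under quantile normalization, 0.024 under voom, 0.30 after the rescaling without small RNA genes, and 0.074 and 0.053 when DMSO replicate 2 or PD replicate 1 was left out. Chaf1b, a subunit of chromatin assembly factor 1, had 33.8 and 49.6 FPKM in DMSO and 27.5 and 30.7 in PD, Tonsl had 6.47 and 6.63 in DMSO and 11.7 and 7.50 in PD, and the histone chaperone Asf1a had a log2 difference of -0.41 with overlapping libraries. Of 38 genes of mitosis, 0 passed, 9 lay above and 4 below, with a median of 0.09. This median was 0.036 without DMSO replicate 1, 0.19 without DMSO replicate 2 and -0.0093 with voom on recovered reads. The checkpoint protein Mad2l1 had 45.5 and 51.5 FPKM in DMSO and 85.1 and 59.3 in PD, the kinetochore protein Nuf2 had 17.1 and 14.3 in DMSO and 24.1 and 21.9 in PD, and the checkpoint kinase Ttk had 26.2 and 26.1 in DMSO and 41.0 and 33.0 in PD. The shares of all genes given above, 17.5% above and 18.3% below, are the background for these counts too.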

How the data were processed

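The authors deposited 1 table of FPKM per gene for the 4 libraries, laid out as Cufflinks writes it, per the file headers. Of tools, Cufflinks, STAR, Bowtie2, Trimmomatic and FastQC, and of builds mm10, are listed in the submitters' processing notes; versions, and how reads that match several places were handled, are not given in the sources used here. A single gene with a failed status was left out. Genes that averaged 1 FPKM or more were tested by a limma model (version 3.58.1, R 4.3.3) of log2(FPKM + 1) (lmFit, eBayes with a trend, group alone, 2 residual degrees of freedom), adjusted by Benjamini-Hochberg over 9741 genes with 0.05 as the threshold. This scale understates changes of low genes. Adjusted p-values named limma come from this fit. Starts of loci equalled the RefSeq start minus 1 for 14617 genes, so 1 was added; a locus can span neighbours that Cufflinks joined.

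Relative depth and reads were recovered from the steps of FPKM values, with a tolerance of 0.02 reads: 72.7% of 10161 genes above 0 in all libraries gave whole reads, against 1.81% with wrong steps. Intervals are exact (Poisson or Clopper-Pearson, 95%, scipy 1.17.1). RefSeq gene types were found for 25081 genes. The fit and the recovery were run on simulated data. The outcome is not given here, so how large a change the fit would find with 2 libraries per group is left unstated. All 43 members are named by role; library values are given for the members whose groups do not overlap, for the 2 highest of each role and where a complex is described, and up to 3 genes of each other list by size of difference. Members and lists were chosen with earlier results of these data known.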

Additional observations from a re-analysis of the deposited data

How the results depend on the processing

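No member passed in any of the 17 alternatives, where the lowest adjusted p was 0.509 (limma, Rfc5 without PD replicate 1). Of the 29 members whose libraries overlap, 27 had the other sign in at least 1 alternative; the other 14 were picked by groups that do not overlap, which fixes their direction in most alternatives. The members' median of 0.07 was 0.40 after rescaling without small RNA genes, under which the all-gene median went from -0.02 to 0.28, and ran from 0.042 to 0.18 when a library was left out. That rescaling also gave 0.34 for the initiation and fork genes, 0.21 for nucleotide supply, 0.30 for chromatin assembly and 0.45 for mitosis. Of the sum it scales to, genes that RefSeq types as snoRNA held 43.4%, 47.1%, 21.8% and 43.5% in the 4 libraries and protein-coding genes 31.1% to 55.1%. A rescaling to protein-coding genes, added after the data were seen, gave a median of 0.04 for the members. It put 10 above and 5 below, where 15.9% and 19.9% of all genes did so. Leaving out a library gave -0.14 to 0.10 for the initiation and fork genes, -0.22 to -0.066 for nucleotide supply, -0.13 to 0.074 for chromatin assembly and 0.036 to 0.19 for mitosis. Members above numbered 14 to 22 and members below 7 to 14 with a library left out, where fewer libraries make overlap rarer. Of all genes tested, 29.8% to 35.9% then lay above and 31.4% to 38.6% below. Without PD replicate 1 the 14 of 43 members above stood beside 35.9% of all genes. Voom on reads, with 30 members, gave 6 above and 4 below, where 18.5% and 18.0% of the genes in that fit did so. The rescaling without small RNA genes gave 13 above and 0 below, where 28.4% and 5.92% of all genes did so.

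Over all genes, 3 were higher and 22 lower. The numbers were 0 and 0 for protein-coding genes alone (609 at an unadjusted p under 0.05, limma) and with voom (436), and 5 were higher after rescaling without small RNA genes. Without a library they ran from 0 to 27 higher and from 0 to 20 lower. For the replicate block, the numbers gave 2 higher and 17 lower; the deviations of same-numbered libraries correlated at r = 0.0992 across all genes tested and 0.25 across the members, which are not independent, and the labels do not say that a number marks a shared culture. Reads per codon were not run, since protein lengths were not used here. Among the 30 members with recovered reads, Gins3, Pold3 and Orc4 had the fewest in PD replicate 2, at 4, 9 and 10. The order holds for recovered reads, which may be a fraction of the true ones.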
